A study of Mus musculus with 4 samples.

Results

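The 34 genes described here belong to the integrated stress response and the unfolded protein response, and were chosen by name, 34 of the 21631 protein-coding genes of the RefSeq table of GRCm38.p6. Accessible chromatin had been profiled by ATAC-seq, which uses the Tn5 transposase to cut DNA where it is open. The tissue was frozen liver of females, 11 weeks old, of the FVB strain background and fed standard chow. The mutant mice, labelled PA, are hypomorphic Pcca-/- animals that carry the A138T form of Pcca, the alpha subunit of propionyl-CoA carboxylase, and the controls are WT mice. There were 2 PA and 2 WT libraries, called biological replicates in the series design, and each came as its own list of peak positions. For every gene, the peaks within 1 kb of either gene end, inside the gene, and outside it up to 50 kb away were collected from each list. Peaks of the 4 libraries that overlapped or touched were merged into regions, which gave 174 regions around the 34 genes out of 38853 in all.

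In the integrated stress response, kinases that sense amino acid shortage, viral RNA, haem shortage or misfolded protein phosphorylate the translation factor eIF2. General protein synthesis then slows, while translation of the transcription factor ATF4 is favoured, and ATF4 switches on genes of amino acid supply and of feedback. The unfolded protein response starts from sensors in the membrane of the endoplasmic reticulum (IRE1, PERK and ATF6) and raises chaperones and the degradation of misfolded proteins, and PERK belongs to both responses. Hepatocytes secrete large amounts of plasma protein and keep a high level of this folding machinery.

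The lists held 25683 peaks in PA 1, 29765 in PA 2, 26280 in WT 1 and 25941 in WT 2, nearly all 400 bp long. A list says where the peak caller made a call and gives no height, and the read depth behind it is unknown. Among 8 hepatocyte marker genes 5 had a peak near a gene end in all 4 libraries (Apob, Ttr, Trf, Fga and Cps1), while Hnf4a had one in PA 2, WT 1 and WT 2, Alb in PA 1 alone and Apoa1 in none. No gene called near an end in all 4 was found among 6 Kupffer cell, 5 bile duct and 5 lymphocyte markers. In all 4 were 2 of 6 endothelial markers (Kdr and Tie1) and 1 of 6 stellate cell markers (Reln). Adgre1 was called in PA 1 and PA 2 alone. Within 1 kb of an annotated transcription start, Hnf4a had a peak in all 4 libraries and Kdr in 1. In whole liver, a change in the number of cells of a type and a change in how open their chromatin is cannot be told apart.

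Most of these genes had a peak at a gene end in every PA and every WT library. A peak within 1 kb of a gene end was called in all 4 libraries for 29 of the 34 genes (85.3%), against 41.3% of all protein-coding genes. By library the count was 30 in PA 1, 30 in PA 2, 30 in WT 1 and 29 in WT 2, which gives 30 ± 0 in PA and 29.5 ± 0.707 in WT (SD, n = 2 each). The difference of 0.5 genes was within the spread between the WT libraries (exact permutation test over the 4 libraries, two-sided, p = 1, where the smallest p this design can give is 0.333). None of the 34 genes had such a peak in PA 1 and PA 2 alone, a pattern found at 0.661% of all protein-coding genes, and none had the opposite pattern, found at 0.476%. Against shares this low, a count of 0 among 34 genes does not set the genes apart. The 41.3% and the other shares called over all protein-coding genes cover genes whether or not they are active in liver. A higher share in a list, here or below, is therefore not read as a trait of its genes.

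All 4 sensors, all 7 transcription factors and all 7 chaperone and folding genes had a near-end peak in every library, as did 5 of 6 feedback and effector genes, 3 of 4 genes of ER-associated degradation and 3 of 6 genes of amino acid and one-carbon supply. The 5 genes outside this count were Asns, Phgdh, Slc7a11, Vldlr and Edem1, and at Edem1 the gene table's end was the reason, as described below. RefSeq promoter entries gave an annotated transcription start for 33 genes, all but Atf6. A peak within 1 kb of a start was called in all 4 libraries for 29 of the 33, against 44.2% of the 17274 protein-coding genes with an annotated start. Of these 29 start regions 28 covered the start itself, and at 25 the peaks of all 4 libraries were centred upstream of it. By the mean of the peak centres 28 lay upstream. Over all 7522 protein-coding genes with a start region in all 4 libraries, 75.6% of the regions had their own centre upstream. At Trib3, Psat1 and Mthfd2 the centres lay on both sides of the start, from -35.5 to 19.5 bp, and at Xbp1 the whole region lay downstream.

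The peak lists do not follow chromosome position, and none of the sources says what set the order of their lines. A region's place, the percentage of lines from the top, is therefore used only to describe where it stands within its own list. Across the 29 start regions the mean place over the 4 lists had a median of 5.47% (quartiles 1.71% and 18.1%), and over all 7522 protein-coding genes with a start region in all 4 libraries it was 22.3% (9.95% and 40.7%). Of the 29, 14 stood in the first 5% of the lines, where 13.2% of all such genes stood. The order of the 29 was alike in the lists, with Spearman's rho from 0.962 to 0.989 across genes for the 6 pairs of libraries. These genes share the libraries and were not chosen independently, so the correlations are descriptions.

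**Figure D1:**
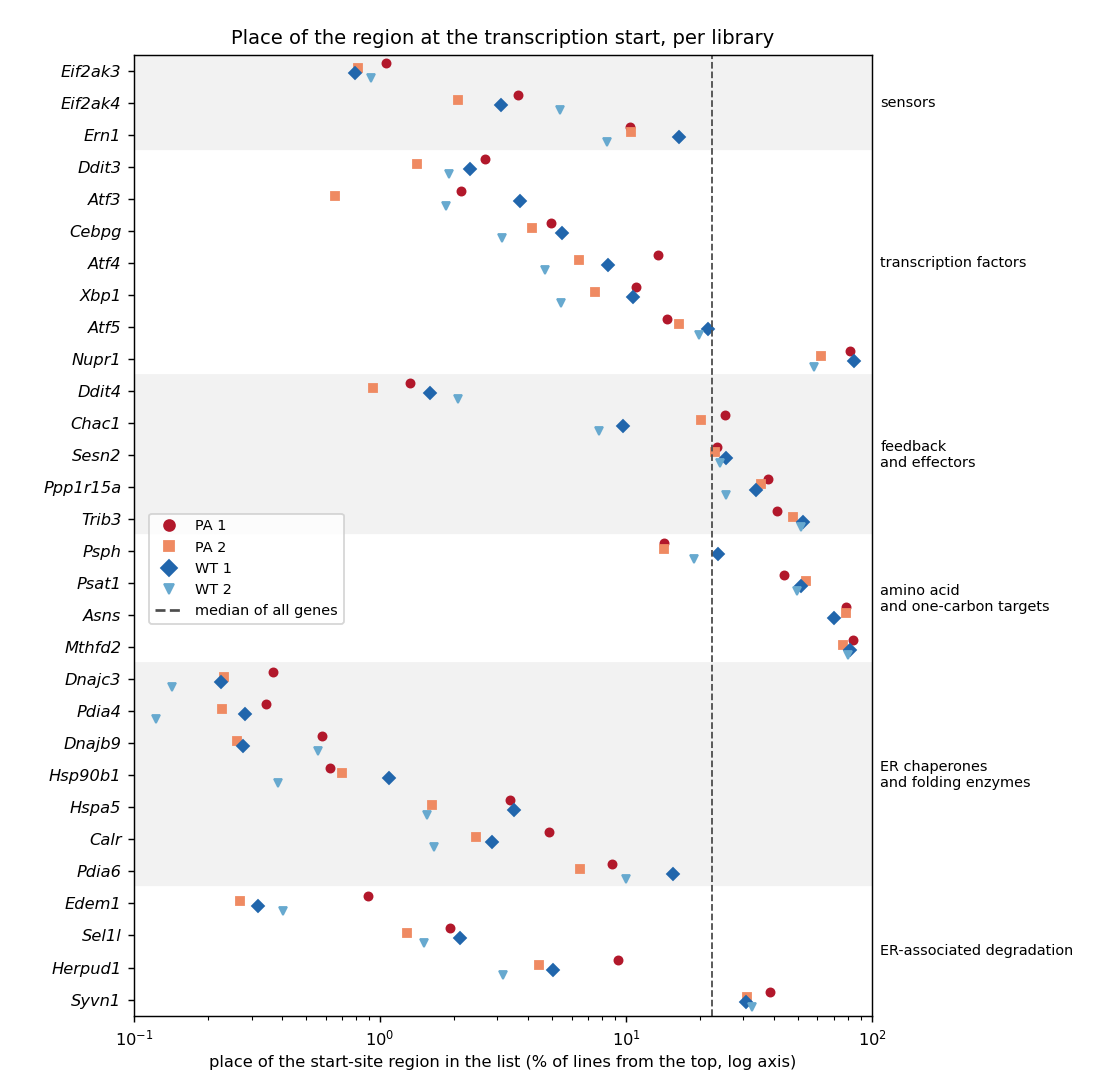
Place of the region at the annotated transcription start in each library's list, as the percentage of lines from the top on a log axis, for the 30 genes with such a region in any library, grouped by role. The dashed line is the median of all protein-coding genes with a start region in all 4 libraries (22.3%). All 7 chaperone and folding genes lie left of the line in every library, and Nupr1, Sesn2, Ppp1r15a, Trib3, Psat1, Asns, Mthfd2 and Syvn1 lie right of it wherever they are called.

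The chaperone and folding genes of the endoplasmic reticulum stood nearest the top. Their 7 start regions had a median place of 0.623% in PA 1, 0.699% in PA 2, 1.09% in WT 1 and 0.559% in WT 2, while the medians of all genes were 19.9%, 21.4%, 24.8% and 22.2%. Dnajc3 encodes p58IPK, a co-chaperone that also inhibits PERK, and its start region (chromosome 14, 118937574 to 118937996) stood first by the mean over the lists (0.241%), at 0.366% in PA 1, 0.232% in PA 2, 0.225% in WT 1 and 0.143% in WT 2. Pdia4, a protein disulfide isomerase, had a mean of 0.244% and came before Dnajc3 in every list but that of WT 1, at 0.343% in PA 1, 0.228% in PA 2, 0.282% in WT 1 and 0.123% in WT 2. Dnajb9, the BiP co-chaperone ERdj4, and Hsp90b1, the chaperone GRP94, had mean places of 0.42% and 0.699%. Hspa5, which encodes BiP, the main chaperone of the endoplasmic reticulum (chromosome 2, 34771752 to 34772184), stood at 3.37% in PA 1, 1.62% in PA 2, 3.49% in WT 1 and 1.55% in WT 2. Calr, the lectin chaperone calreticulin, had a mean place of 2.95%, and Pdia6, another disulfide isomerase, 10.2%. Within this group the PA and WT places overlapped at every gene but Dnajc3, where both PA places came after both WT places, and Pdia6, where they came before.

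Promoters of 5 of these 7 genes held a match to the ER stress response element (ERSE), which consists of CCAAT, a spacer of 9 bases and CCACG, and which is bound by NF-Y together with ATF6. The motif, searched as CCAAT, any 9 bases and CCACG on both strands of the window from 250 bases before to 50 after each annotated start, was found for 6 of the 33 genes, and for 29 of 17274 protein-coding genes (0.168%). The 6 were Hspa5, Hsp90b1, Calr, Pdia6 and Dnajc3, all chaperone and folding genes, and Syvn1, the ubiquitin ligase HRD1. Pdia4 and Dnajb9, which stood high in every list, had no match to any of the motifs searched. The motifs were picked, like the genes, for their place in these responses, so their shares are descriptions and no test. The 7 matches are shown to compare spacing and flanks. Each is written 5′ to 3′ in the direction of the motif with 4 flanking bases, capitals mark the fixed letters, and the numbers are bases from the start, where the start is 1 and the base before it is -1.
Hspa5, -65 to -47: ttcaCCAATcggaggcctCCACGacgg
Calr, -162 to -144: tgggCCAATgagggtcgaCCACGcgtt
Hsp90b1, -212 to -194: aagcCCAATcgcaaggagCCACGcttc
Hsp90b1, -107 to -89: ctcaCCAATcgtgcctcaCCACGcact
Pdia6, -98 to -80: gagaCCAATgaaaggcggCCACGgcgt
Dnajc3, -105 to -87: acaaCCAATcagcgccaaCCACGaccc
Syvn1, -44 to -26: gcaaCCAATcggcggtagCCACGggaa
The fixed letters leave the spacer free, and its 9 bases differ among all 7 matches. Calr and the match of Hsp90b1 nearer to the start read on the strand opposite to the gene. All 7 lay under a peak of every library.

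The Hspa5 promoter is given in full, since the whole window of 300 bases lies inside the region called in all 4 libraries. It is the RefSeq sequence of GRCm38.p6, a C57BL/6J genome, and not that of the FVB mice used. Capitals mark the ERSE match.
Hspa5, chr2:34771840-34772139, plus strand: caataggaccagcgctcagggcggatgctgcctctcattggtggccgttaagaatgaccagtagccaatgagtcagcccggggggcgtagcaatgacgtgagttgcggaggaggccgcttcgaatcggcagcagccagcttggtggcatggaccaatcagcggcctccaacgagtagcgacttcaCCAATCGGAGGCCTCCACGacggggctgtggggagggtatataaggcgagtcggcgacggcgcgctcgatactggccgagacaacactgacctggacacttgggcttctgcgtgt
The peak centres lay at -138.5 bp from the start in PA 1, PA 2 and WT 1, and at -105.5 bp in WT 2. Each of the 4 peaks covered the whole window.

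Genes of ER-associated degradation, which moves misfolded proteins back to the cytosol to be destroyed, ranged more widely. Edem1, a mannose-trimming lectin factor, has a gene end in the table that lies 4191 bp from the nearest region, so it had no near-end peak. Its annotated start falls inside the gene, and the region over that start (chromosome 6, 108828236 to 108828738) stood at 0.892% in PA 1, 0.269% in PA 2, 0.32% in WT 1 and 0.401% in WT 2. A further Edem1 region, 7550 bp from the start, was called in all 4 libraries as well. Sel1l, the partner of HRD1, had a mean place of 1.71% and Herpud1, a membrane protein of the same complex, 5.47%. Syvn1 stood at 38.6% in PA 1, 31% in PA 2, 30.8% in WT 1 and 32.5% in WT 2, well behind the other 3 genes. Its ERSE match lies 44 to 26 bases before its start. Whether a match bears on place was not tested. The peak centres at Syvn1 agreed within 5 bp over the libraries, and those at Herpud1 within 2 bp.

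Herpud1 was the gene with matches to elements of both responses. ERSE-II, searched as ATTGG, any base and CCACG, occurred in the windows of 11 protein-coding genes (0.0637%), and Herpud1 was the only match among the 33. Its window also held the composite element of ATF4 and C/EBP proteins, searched as TGATGNAA and present in the windows of 3.95% of protein-coding genes. In the Herpud1 promoter both are in capitals, the composite element first (read on the opposite strand) and ERSE-II after it.
Herpud1, chr8:94386179-94386478, plus strand: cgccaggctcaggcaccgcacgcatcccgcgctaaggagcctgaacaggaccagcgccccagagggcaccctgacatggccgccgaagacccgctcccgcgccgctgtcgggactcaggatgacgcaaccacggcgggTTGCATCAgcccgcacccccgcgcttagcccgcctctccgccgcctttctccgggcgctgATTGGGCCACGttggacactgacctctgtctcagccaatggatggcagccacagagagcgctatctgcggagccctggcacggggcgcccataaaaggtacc
Both matches lay under the peak of every library, at 9.24% of the list in PA 1, 4.41% in PA 2, 5.04% in WT 1 and 3.17% in WT 2. A region 907 bp past the start of Herpud1 (chromosome 8, 94387336 to 94387741) was called in PA 2, at 15.1%, and in WT 2, at 11%, and in neither PA 1 nor WT 1. It was thus present once in each genotype.

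Among the sensors, Eif2ak3 (PERK) stood highest. Its start region (chromosome 6, 70844030 to 70844610) was 581 bp long and stood at 1.06% in PA 1, 0.813% in PA 2, 0.788% in WT 1 and 0.917% in WT 2. The peak centres lay at -104.5 bp from the start in PA 1, -218.5 bp in PA 2, -285.5 bp in WT 1 and -218.5 bp in WT 2, the widest spread of the 29 genes (181 bp, where the median was 41 bp). Eif2ak4, the kinase GCN2, which senses uncharged tRNA, had a mean place of 3.55%, and 1 of its 3 regions inside the gene was called in all 4 libraries. Ern1, which encodes IRE1 alpha, the sensor that splices Xbp1 mRNA, had a mean place of 11.4%. Ern1 also had the most regions within 50 kb, 11, of which 10 were called in PA 1, 6 in PA 2, 6 in WT 1 and 5 in WT 2, and 3 in all 4 libraries. PA 1 alone held 4 of them. None of the 4 regions inside Ern1 was called in every library.

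Atf6, the sensor that is cut in the Golgi to release a transcription factor, was called near its upper gene end in all 4 libraries, but not at a single place. The region 540 bp inside the gene (chromosome 1, 170867621 to 170868045) was called in PA 2 at 55.3%, in WT 1 at 66.9% and in WT 2 at 58%. In PA 1 the call lay at the gene end itself (170868465 to 170868864), at 65%, 420 bp from the nearest WT peak. Within the gene, a region at 170761472 to 170761910 was called in all 4 libraries.

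The transcription factors were called at their starts in every library. Ddit3 encodes CHOP, which acts in prolonged stress, and stood at 2.66% in PA 1, 1.41% in PA 2, 2.32% in WT 1 and 1.9% in WT 2. Atf3, an ATF4 target and repressor, stood at 2.14% in PA 1, 0.655% in PA 2, 3.71% in WT 1 and 1.85% in WT 2, and a second Atf3 region 150 bp from the other gene end was also called in all 4. Atf4 itself (chromosome 15, 80254867 to 80255307) stood at 13.5% in PA 1, 6.42% in PA 2, 8.48% in WT 1 and 4.68% in WT 2. At each of these genes the PA and WT places overlapped. Cebpg, a dimer partner of ATF4, had a mean place of 4.43%, Xbp1, the IRE1 target, 8.64%, and Atf5, a factor of the mitochondrial stress response, 18.1%. The Xbp1 peaks were centred 238.5 bases past the start in PA 1, PA 2 and WT 1 and 243.5 in WT 2. The Atf5 region covered an annotated start, 564 bp from the nearest gene end, and lay within 1 kb of ends of Nup62 and Il4i1b as well. Nupr1, a small stress-induced chromatin protein, stood last of these 7 factors, at 81.2% in PA 1, 61.8% in PA 2, 84.2% in WT 1 and 58.3% in WT 2.

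Feedback and effector genes were spread over the lists. Ddit4 (REDD1), an inhibitor of mTORC1, stood at 1.32% in PA 1, 0.934% in PA 2, 1.59% in WT 1 and 2.07% in WT 2. Sesn2 (sestrin 2), which curbs mTORC1 as well, had a mean place of 23.9%, and Ppp1r15a (GADD34), the phosphatase subunit that reverses eIF2 phosphorylation, 33%. A second Sesn2 region, 623 bp beyond the 3′ end, was called in PA 1, PA 2 and WT 2 and not in WT 1. Trib3, a pseudokinase that restrains ATF4, stood at 40.9% in PA 1, 47.9% in PA 2, 52.2% in WT 1 and 51.5% in WT 2.

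Chac1, a glutathione-degrading enzyme, stood at 25.3% in PA 1, 20.2% in PA 2, 9.76% in WT 1 and 7.74% in WT 2, and its region 747 bp past the 3′ end at 29.8% in PA 1, 40.3% in PA 2, 10.2% in WT 1 and 17.7% in WT 2. The PA and WT places did not overlap at either region. Places in both PA lists came after those in both WT lists for 3 of the 29 start regions (Chac1, Ppp1r15a and Dnajc3), against 6.7% of the 7522 genes, and before them for 6 (Atf5, Trib3, Ddit4, Sesn2, Psph and Pdia6), against 30% of the 7522. The lists differ in length and in what fills their upper lines, so no change in accessibility is read from a place.

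Vldlr, the VLDL receptor, which PERK and ATF4 raise in stressed hepatocytes, had no peak within 1 kb of an end or a start in any library. Its nearest region (chromosome 19, 27218725 to 27219265), 1705 bp past a start, was called at 60.7% in PA 1, 46% in PA 2 and 97% in WT 1 and not in WT 2.

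Of the 6 groups, genes of serine, asparagine and one-carbon supply had the lowest share of near-end calls in all 4 libraries. It was 3 of 6 (50%), which does not lie below the 41.3% of all protein-coding genes. Asns, asparagine synthetase, had its start region (chromosome 6, 7692934 to 7693449) at 78.6% in PA 1, 78.3% in PA 2 and 69.9% in WT 1, with no call in WT 2. All these places lie in the lower part of the lists. Phgdh, the first enzyme of serine synthesis, had no region at its ends or inside, while 5 regions lay 11136 bp or more away. Slc7a11, the cystine and glutamate exchanger xCT, had no region inside the gene or within 50 kb in any library and was the only gene of the 34 without one. Psph, the last enzyme of serine synthesis, had a mean place of 17.7%, but its region is shared with an end of Cct6a. Psat1, the middle enzyme, stood at 43.8% in PA 1, 53.8% in PA 2, 51.5% in WT 1 and 49.4% in WT 2, and its other gene end was called in all 4 libraries too. Mthfd2, a mitochondrial folate enzyme, had a region over its annotated start inside the gene at a mean place of 80.1%, and one at the upper gene end, shared with Mob1a, at 25.8%.

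The composite element TGATGNAA of ATF4 and C/EBP proteins was found in the windows of 8 of the 33 genes, against 683 of 17274 protein-coding genes (3.95%). They were Asns, Atf3, Chac1, Herpud1, Nupr1, Slc7a11, Trib3 and Vldlr, all of them on the arm downstream of ATF4, except that Herpud1 is a target of both responses. The 9 matches are shown in the direction of the motif with 6 flanking bases and the fixed letters in capitals, with positions counted as before.
Atf3, -110 to -103: acttggTGATGcAAgtgcga
Chac1, -193 to -186: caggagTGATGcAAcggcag
Trib3, 15 to 22: cccggcTGATGtAAacctga
Slc7a11, -66 to -59: tgtggcTGATGcAAacctgg
Slc7a11, -47 to -40: gcatgaTGATGcAAattctc
Asns, -23 to -16: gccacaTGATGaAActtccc
Nupr1, -110 to -103: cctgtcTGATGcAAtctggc
Herpud1, -112 to -105: gcgggcTGATGcAAcccgcc
Vldlr, -200 to -193: gagcgcTGATGcAActattg
The free base was C in 7 of the 9 matches. The start peaks of Atf3, Chac1, Herpud1, Nupr1 and Trib3 covered their match in all 4 libraries, that of Asns in 3, and at Slc7a11 and Vldlr no library had a peak over a match. Slc7a11 held 2 matches to this element, and each of the other genes listed held 1. Chac1 and Asns, called in 4 and 3 libraries, and Slc7a11, called in none, are set side by side in full, with matches in capitals as they read on the strand of the gene.
Chac1, chr2:119350992-119351291, plus strand: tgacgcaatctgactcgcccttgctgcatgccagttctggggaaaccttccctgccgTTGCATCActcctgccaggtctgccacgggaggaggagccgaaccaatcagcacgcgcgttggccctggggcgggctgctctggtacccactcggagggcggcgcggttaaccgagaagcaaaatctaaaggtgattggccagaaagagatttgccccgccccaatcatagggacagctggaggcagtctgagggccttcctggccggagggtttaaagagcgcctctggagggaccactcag
Asns, chr6:7693160-7693459, minus strand: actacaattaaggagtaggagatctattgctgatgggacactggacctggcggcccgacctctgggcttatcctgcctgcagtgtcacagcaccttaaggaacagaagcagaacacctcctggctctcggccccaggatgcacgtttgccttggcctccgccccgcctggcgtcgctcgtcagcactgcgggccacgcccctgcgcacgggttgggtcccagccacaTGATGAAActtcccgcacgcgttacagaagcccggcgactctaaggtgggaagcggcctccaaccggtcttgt
Slc7a11, chr3:50443564-50443863, minus strand: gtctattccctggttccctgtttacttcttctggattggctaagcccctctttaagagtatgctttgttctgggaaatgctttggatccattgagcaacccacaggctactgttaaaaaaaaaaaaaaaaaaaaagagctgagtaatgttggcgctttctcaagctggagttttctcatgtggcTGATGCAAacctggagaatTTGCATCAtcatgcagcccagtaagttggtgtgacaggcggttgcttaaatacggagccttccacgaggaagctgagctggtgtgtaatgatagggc
The windows differ in base composition, with 61.3% G and C at Chac1, 61.7% at Asns and 44.7% at Slc7a11. The median of all 21045 promoter windows was 56.7%. The Vldlr window that holds a match, over which no library had a peak either, had 68%. Whether base composition bears on the calls was not tested. The cAMP response element TGACGTCA was found for Ppp1r15a alone of the 33 and for 2.58% of protein-coding genes, and the core TGACGTGG of the unfolded protein response element for none and for 0.834%. No match overlapped a match of another motif. A match of letters is a description and does not show that a factor binds there. The shares beside those of all genes are descriptions too, since motifs and genes were picked for the same responses.

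**Figure D2:**
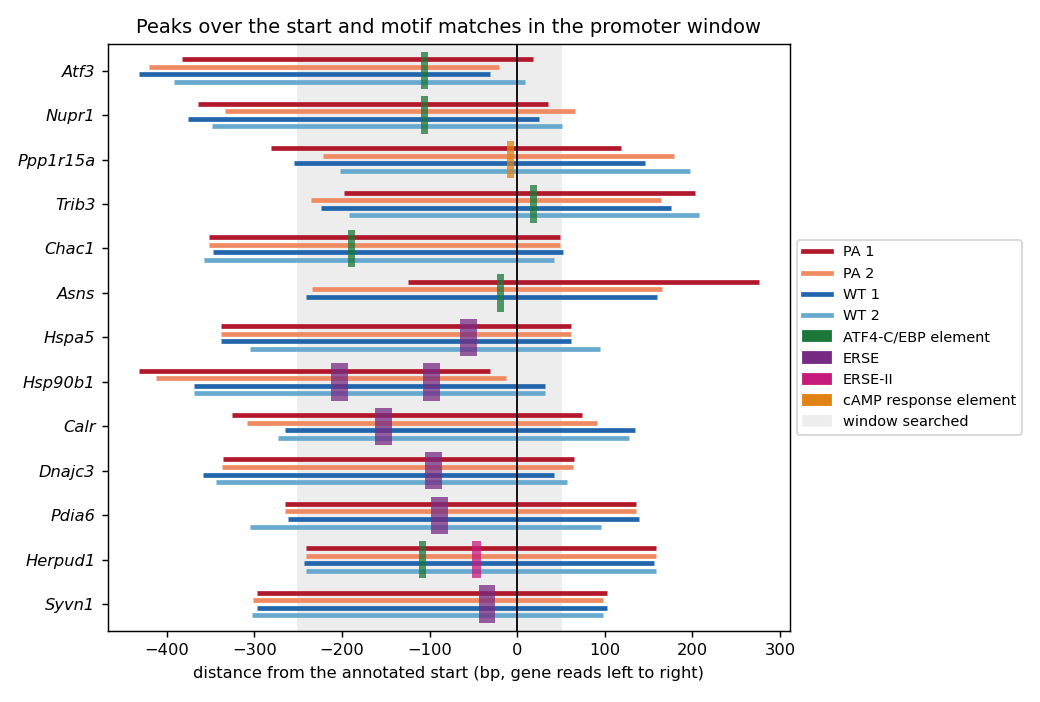
Peaks at the annotated start of each gene with a peak there and a motif match (horizontal bars, 1 per library, 400 bp long around the peak centre) and the motif matches in the searched window (upright boxes), in bp from the start. Every match shown lies under the peaks of all 4 libraries, except at Asns, which has no peak in WT 2.

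Around the 34 genes the numbers of regions called in PA and WT libraries met at 134. Of the 174 regions, 134 were called in PA 1, 142 in PA 2, 134 in WT 1 and 128 in WT 2, or 138 ± 5.66 in PA and 131 ± 4.24 in WT (SD, n = 2 each). Regions called in all 4 libraries numbered 100 (57.5%), against 45.3% of all merged regions. Of the rest, 32 were called in 1 library, 22 in 3, and 14 in 1 library of each genotype. Near gene ends 31 of 37 regions were in all 4 libraries, inside genes 6 of 20, and outside genes 63 of 117. The same split by position was not counted over all merged regions. The 45.3% also covers regions far from genes, so these shares are not read as traits of the 34 genes. Inside genes the number called was 13 in PA 1, 16 in PA 2, 13 in WT 1 and 9 in WT 2, so that PA 1 and WT 1 were equal. The nearest protein-coding gene end belonged to 1 of the 34 genes for 81 of the 174 regions, and the others lay nearer to a neighbouring gene. At 7 genes the near-end region also lay within 1 kb of an end of another gene, namely Atf5, Cebpg, Ddit3, Hsp90b1, Mthfd2, Ppp1r15a and Psph.

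**Figure D3:**
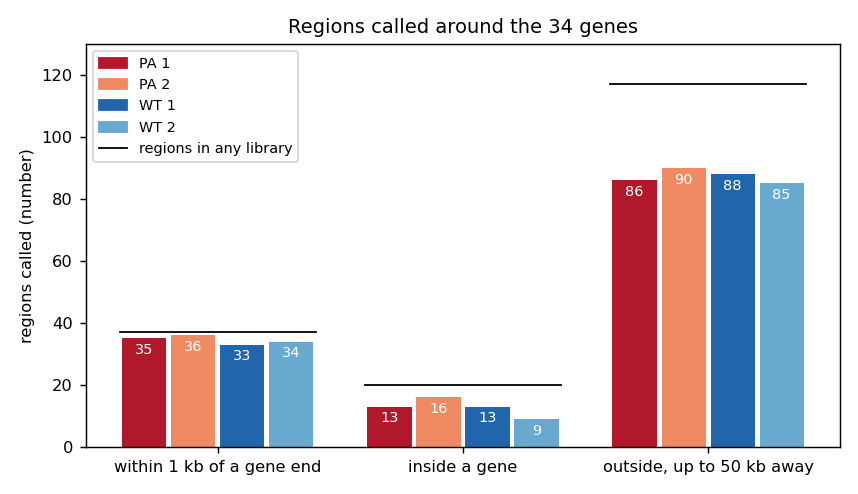
Number of regions called in each library around the 34 genes, by position, with the number called in any library as a black line (37, 20 and 117). Outside genes the bars run from 85 to 90, and inside genes from 9 (WT 2) to 16 (PA 2).

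Regions restricted to a genotype had shares near those over all merged regions. Regions with a peak in PA 1 and PA 2 but no WT peak numbered 4 of 174 (2.3%), against 3.38% of all merged regions, and those with a peak in WT 1 and WT 2 but no PA peak numbered 2 (1.15%), against 1.98%. All 12 peaks in these 6 regions stood 68.8% or more of the way down their lists. Where restricted regions elsewhere stand was not examined, so this is not read as particular to these genes. At Dnajc3 a PA-only region (chromosome 14, 118980337 to 118980752) lay in the gene 950 bp before its 3′ end, at 80.6% in PA 1 and 74.8% in PA 2, with the nearest WT peak 26634 bp away. At Vldlr a PA-only region (chromosome 19, 27235839 to 27236264) lay inside the gene, 18819 bp from a start, at 88.2% in PA 1 and 93.5% in PA 2, and 16715 bp from a WT peak. The PA-only region upstream of Asns (chromosome 6, 7733019 to 7733460) stood at 79.4% in PA 1 and 68.8% in PA 2, and the WT peak nearest to it was 39570 bp away, near the Asns start.

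Downstream of Pdia4 a PA-only region (chromosome 6, 47771679 to 47772088), at 97.1% in PA 1 and 91.6% in PA 2, lay 1089 bp from a WT-only region (47770156 to 47770590), at 99.4% in WT 1 and 96.7% in WT 2. Each genotype thus had a call in the same stretch, 24053 and 25551 bp from the gene, 91.6% or more of the way down its lists. The other WT-only region (chromosome 6, 70797838 to 70798260), at 77.8% in WT 1 and 90.6% in WT 2, lay 46224 bp from Eif2ak3 but 5663 bp from Rpia, and 5447 bp from a PA peak. With every list held to the length of the shortest, 2 PA-only regions (Dnajc3 and Asns) and 1 WT-only region (Eif2ak3) were restricted.

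**Figure D4:**
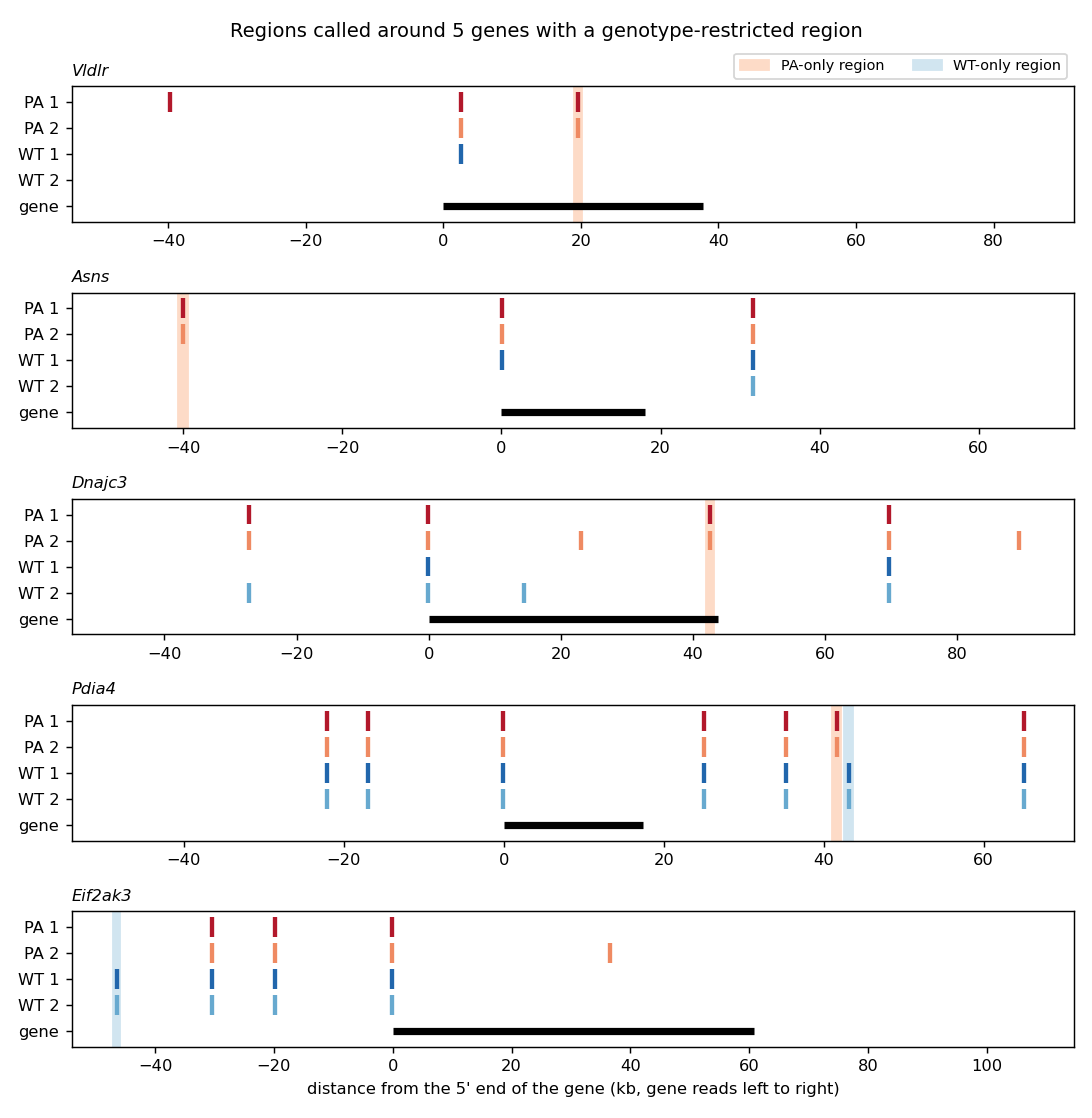
Regions called in each library around the 5 genes with a genotype-restricted region, in kb from the 5′ end of the gene (black bar), with PA-only and WT-only regions shaded. The start regions of Dnajc3, Pdia4 and Eif2ak3 are called in all 4 libraries, that of Asns in PA 1, PA 2 and WT 1, and Vldlr has none.

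Most further genes of both responses were called in every library as well. Of 58 listed genes 57 were matched, and 45 (78.9%) had a near-end peak in all 4 libraries, against 41.3% of all protein-coding genes, with 47 genes called in PA 1, 49 in PA 2, 49 in WT 1 and 50 in WT 2. All 13 further folding and secretion genes, among them Hyou1, Canx, P4hb and Pdia3, and all 10 further genes of ER-associated degradation, among them Derl1, Os9 and Vcp, were called in every library. Of 22 further targets and transcription factors of the integrated stress response 13 were. The secreted stress factors Fgf21, Gdf15 and Stc2, the apoptosis gene Bbc3 and the GCN2 activator Gcn1 had a near-end peak in no library. Creb3l3, the liver factor CREBH, had none at its gene ends but a region in all 4 libraries at its annotated start. Bbc3 had a region inside the gene, 4612 bp from an end. It was called at 3.4% in PA 2, 5.11% in WT 1 and 6.93% in WT 2, and not in PA 1.

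Of these 57 genes 1 had a near-end call in PA 1 and PA 2 alone, a pattern of 0.661% of all protein-coding genes, and 1 in WT 1 and WT 2 alone, a pattern of 0.476%. The first was Impact, an inhibitor of GCN2, with peaks at 73.3% in PA 1 and 72.8% in PA 2 and 7828 bp to the closest WT peak. Only the call near that gene end was restricted to PA. Another region, inside Impact, was called in all 4 libraries, at 6.66% in PA 1, 4.7% in PA 2, 5.07% in WT 1 and 5.99% in WT 2. The other was Shmt2, mitochondrial serine hydroxymethyltransferase, where the region lay 996 bp from the gene end at 26% in PA 2, 35.4% in WT 1 and 26.3% in WT 2. The PA 2 peak was part of the same merged region but lay beyond 1 kb, so the difference at Shmt2 came from the distance limit in PA 2 and from the missing call in PA 1. Motifs could be searched for 48 of the 57 genes, those with a promoter window. The shares over all protein-coding genes are those given above for each motif. The ERSE was found in the windows of Canx, Creld2, Derl3 and Ero1b, and ERSE-II in that of Dnajb11. All 5 genes had a start peak in all 4 libraries. The composite element was found for Aars, Fgf21, Gars, Jdp2 and Pycr1, of which 3 had a start peak in all 4 libraries, and TGACGTGG for Ube2j1, Vcp and Vegfa, of which 2 had.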

How the data were processed

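Libraries were made from 20 mg of frozen liver following Omni-ATAC, per the labels' protocols. The submitters' processing notes name bedtools 2.31.0, HOMER 4.10, R 4.1.2, SAMtools 1.17, Bowtie2 2.5.1 and cutadapt 3.5, and the build GRCm38 (mm10). Which program called the peaks, its threshold, how reads were filtered and whether cut sites were shifted is not stated there. The files the authors deposited that were used here hold peak positions only, so values carry no unit, depth is unknown and no interval that needs it is given.

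Genes came from the RefSeq table of GRCm38.p6 (127 of 128 list genes matched, 5 by an older symbol) and starts and promoter windows from its promoter sequences. A library called a region with at least 1 bp of a peak. PA-only means called in both PA and neither WT library, and WT-only the reverse. Counting was done with Python 3.11.15, pandas 2.3.3 and NumPy 2.4.6, checked on simulated peaks. All 34 genes are accounted for. Described in full are those with a genotype-restricted region, those without a near-end peak in all 4 libraries, those first and last in the lists and the one with the most regions; of the further genes, those restricted to a genotype or called in no library. The genes and lists were chosen with earlier results of these data known, and the description by place in the list was added after the lists were seen. Alternatives were the upper 50% of each list, lists of equal length, other distances, starts only, another overlap, nearest gene only and leaving out each library.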

Additional observations from a re-analysis of the deposited data

How the results depend on the processing

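The count of genes with a near-end peak in all 4 libraries was 29, and ranged from 25 (upper 50% of each list) to 30 (without WT 2) over all alternatives. The PA minus WT difference of 0.5 genes per library was 1.5 in the upper 50% of the lists and 1 within 500 bp (exact permutation p = 0.333 and 0.667, two-sided). Genes called in both PA libraries alone numbered 1 in the upper 50% (Trib3, whose WT peaks lie just past that limit), and 0 to 1 when a library was left out (Asns, without WT 1). Of the counts of restricted regions, PA-only regions numbered 2 with lists of equal length and 9 to 14 with a library left out (13 without PA 1, 14 without PA 2, 12 without WT 1, 9 without WT 2). WT-only regions numbered 0 in the upper 50%, 1 with lists of equal length, 0 within 25 kb, 1 where the nearest gene had to be 1 of the 34, and 5 to 9 with a library left out (5 without PA 1, 8 without PA 2, 8 without WT 1, 9 without WT 2). Leaving out a library loosens the condition, so these counts rise by construction. The other 35 values kept within 1.5 times or kept their sign. In the upper 50% the 3 PA-only regions were at Ddit4, Trib3 and Mthfd2, none of them restricted in the full lists. The replicate numbers are not stated to pair the libraries, and over all regions the PA 1 minus PA 2 calls correlated with the WT 1 minus WT 2 calls at -0.00688. With the replicate number as a block, a choice made after seeing the data, the difference was 0 genes for number 1 and 1 for number 2, a mean of 0.5 (exact sign-flip permutation test, two-sided, p = 1, smallest possible 0.5).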

Other observations

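Over all protein-coding genes the motifs differed in how often a gene that held them had a start peak in all 4 libraries. Any annotated start of the gene counted, not only that of the window with the match. Of the 29 genes with an ERSE in the window, 13 (44.8%) had a peak within 1 kb of a start in all 4 libraries, near the 44.2% of all genes. Of these 13, 6 were among the 34 genes and 4 among the further pathway genes. Of the 683 genes with the composite element of ATF4 and C/EBP proteins, 182 (26.6%) had such a peak, against 44.2% of all genes with an annotated start, 60.4% of the 144 genes with TGACGTGG and 70.1% of the 445 with TGACGTCA. Among the 8 of the 34 genes with the composite element it was 5. The motifs differ in their share of G and C, and whether this bears on the shares called was not tested.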
